A study of Mus musculus with 6 samples.

Results

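Matrix metalloproteinases (MMPs), the secreted ADAMTS proteases and the tissue inhibitors of metalloproteinases (TIMPs) were followed in C3H10T1/2 cells after a short exposure to dexamethasone. The members were all genes of the array with a symbol of the form Mmp, Adamts or Timp followed by a number, taken from probes annotated to 1 gene only. This gave 41 genes on 65 probes, made up of 21 MMP, 16 ADAMTS and 4 TIMP genes, out of 19640 genes that have such a probe. A gene was tested where both groups had values on 2 or more arrays, which 38 of the 41 members met, all but Mmp7, Mmp20 and Adamts19. C3H10T1/2 is an established mouse mesenchymal cell line that is widely used as a model of multipotent stromal cells. The vehicle group was 3 cultures given DMSO, the solvent, and the dexamethasone group was 3 cultures given 1 µM dexamethasone, a synthetic glucocorticoid, both for 90 minutes in serum-containing medium. Each sample was labelled with Cy3 and hybridised against a Cy5-labelled pool of RNA from the same cell line, so each value is a ratio against the pool and shows no absolute level. The pool held RNA of both groups. The sample labels also name RNA of myostatin-treated cells in it, which the series description leaves out.

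MMPs are zinc-dependent enzymes that cut collagens, gelatin and other parts of the extracellular matrix, and are made as inactive precursors. ADAMTS proteases are related secreted enzymes that cut proteoglycans such as aggrecan and versican, or process procollagens and other matrix proteins. TIMPs bind the active site of these enzymes, and Timp3 also blocks several ADAMTS and ADAM proteases. In stimulated fibroblasts, glucocorticoids are known to lower transcription of collagenase and stromelysin genes, in part through interference of the glucocorticoid receptor with the transcription factor AP-1 at their promoters.

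The promoters of a few members are shown first, since they carry the features by which collagenase and stromelysin genes are known to respond to AP-1. Of the 41 members 27 had a sequence in the RefSeq promoter table (GRCm38.p6), with 30 promoters of 300 bases that reach from 250 bases before to 50 bases after a transcript start. Mmp13, Mmp3 and Mmp10 stand for the cluster of neighbouring MMP genes on chromosome 9, and Adamts1 for a member outside it. Capitals mark the AP-1 letters TGANTCA and the TATA letters TATAAA, and each sequence reads 5′ to 3′ along the gene.
Mmp13 promoter (chr9:7272264-7272563, + strand): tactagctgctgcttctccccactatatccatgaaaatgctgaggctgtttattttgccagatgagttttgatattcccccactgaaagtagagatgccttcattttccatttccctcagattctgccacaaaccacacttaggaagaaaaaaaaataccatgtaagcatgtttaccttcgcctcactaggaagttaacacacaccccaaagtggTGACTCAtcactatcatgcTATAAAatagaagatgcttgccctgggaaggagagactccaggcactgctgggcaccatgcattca
Mmp3 promoter (chr9:7445572-7445871, + strand): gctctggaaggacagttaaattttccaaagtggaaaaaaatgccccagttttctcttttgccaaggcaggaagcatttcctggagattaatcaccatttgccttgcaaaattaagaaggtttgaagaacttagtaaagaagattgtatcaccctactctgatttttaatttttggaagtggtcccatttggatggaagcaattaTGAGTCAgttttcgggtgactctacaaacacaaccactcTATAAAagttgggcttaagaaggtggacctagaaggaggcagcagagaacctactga
Mmp10 promoter (chr9:7502092-7502391, + strand): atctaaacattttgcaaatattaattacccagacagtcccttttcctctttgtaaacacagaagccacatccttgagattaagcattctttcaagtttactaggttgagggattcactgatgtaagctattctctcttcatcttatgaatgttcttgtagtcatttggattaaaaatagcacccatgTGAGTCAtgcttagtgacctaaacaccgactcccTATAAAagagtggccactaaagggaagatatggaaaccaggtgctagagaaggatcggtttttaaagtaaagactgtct
Adamts1 promoter (chr16:85803064-85803363, - strand): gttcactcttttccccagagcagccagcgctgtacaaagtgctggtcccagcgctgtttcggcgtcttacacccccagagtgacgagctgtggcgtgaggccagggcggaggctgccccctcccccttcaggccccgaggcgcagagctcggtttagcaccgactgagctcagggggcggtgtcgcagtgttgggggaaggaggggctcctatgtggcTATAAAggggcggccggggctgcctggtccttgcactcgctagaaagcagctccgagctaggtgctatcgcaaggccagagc
In these sequences the AP-1 letters began 35 bases before the start in Mmp13, 46 in Mmp3 and 63 in Mmp10, each followed by TATA letters. Adamts1 had TATA letters beginning 32 bases before its start and no AP-1 letters in this window. In the RefSeq gene table the cluster holds 10 neighbouring protein-coding MMP genes, in the order Mmp13, Mmp12, Mmp1b, Mmp3, Mmp1a, Mmp10, Mmp8, Mmp27, Mmp20 and Mmp7. Of these 9 are members with a promoter sequence. All letters were searched on both strands, and matches of different motifs could overlap. The AP-1 letters were in 8 of the 30 member promoters, all 8 of them in different genes of the cluster, and in 7.81% of all 32851 promoters. Of the 9 cluster genes searched, Mmp8 alone had none. TATAAA was in 11 of the 30 member promoters and in 13.6% of all. The ETS letters AGGAAG were in 16 of 30, against 35.4% of all. The cyclic AMP element TGACGTCA (1.79% of all) and the palindromic glucocorticoid response element (0.475% of all) were in 0 of the 30. A match is a description of letters, not of binding.

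The arrays were of unequal quality, which touches most members. Between 552 and 4290 of 38467 probes had no value on an array, and the array medians of the log2 ratio ran from -0.12 to 0.57. A probe value was called low-signal where it was missing, lay beyond 10 in size, or matched at 3 decimals the log2 of 1 whole number over another, both between 1 and 10. Ratios of small whole numbers made up 1.86% to 3.79% of the values on vehicle 1, vehicle 2 and dexamethasone 1, and 7.73% to 12.7% on vehicle 3, dexamethasone 2 and dexamethasone 3. These are called the low-share and the high-share arrays below. The median difference between dexamethasone and vehicle over all features was 0.32 on the log2 scale, and 0.02 once the array medians were set to 0. Sample over pool is the likely direction of the ratio but is not stated: Dusp1 and Fkbp5, textbook glucocorticoid targets, stood 4.26 ± 0.18 and 3.93 ± 0.35 (SE) above vehicle in this reading. In the opposite direction each member given as higher would be lower by the same amount, and the reverse. Over all probes, vehicle 2 and dexamethasone 3 had the lowest Spearman coefficient of any pair of arrays, -0.33. Within the same treatment, dexamethasone 1 had coefficients of -0.22 with dexamethasone 2 and -0.27 with dexamethasone 3. Across treatments, vehicle 1 and dexamethasone 1 had 0.52, and vehicle 3 and dexamethasone 2 had 0.40. The reason for these coefficients was not tested.

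Many members were near the limit of measurement. Of the 65 member probes 36 (55.4%) had no low-signal value on any array, against 64.5% of all probes with 1 symbol. They belonged to 25 genes: 12 of the 16 ADAMTS, 10 of the 21 MMP and 3 of the 4 TIMP genes. The 16 members without such a probe were Mmp1a, Mmp1b, Mmp7, Mmp10, Mmp11, Mmp12, Mmp17, Mmp20, Mmp21, Mmp24, Mmp25, Adamts3, Adamts15, Adamts19, Adamts20 and Timp4. Such a match may also arise by chance. The only probe of Mmp11 had 1 match, with values of -0.11, -0.24 and -0.10 in vehicle and -0.36, -0.28 and -0.04 in dexamethasone. Where a member had both kinds of probe, its value over the probes without low signal is given beside its mean over all probes.

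**Figure D1:**
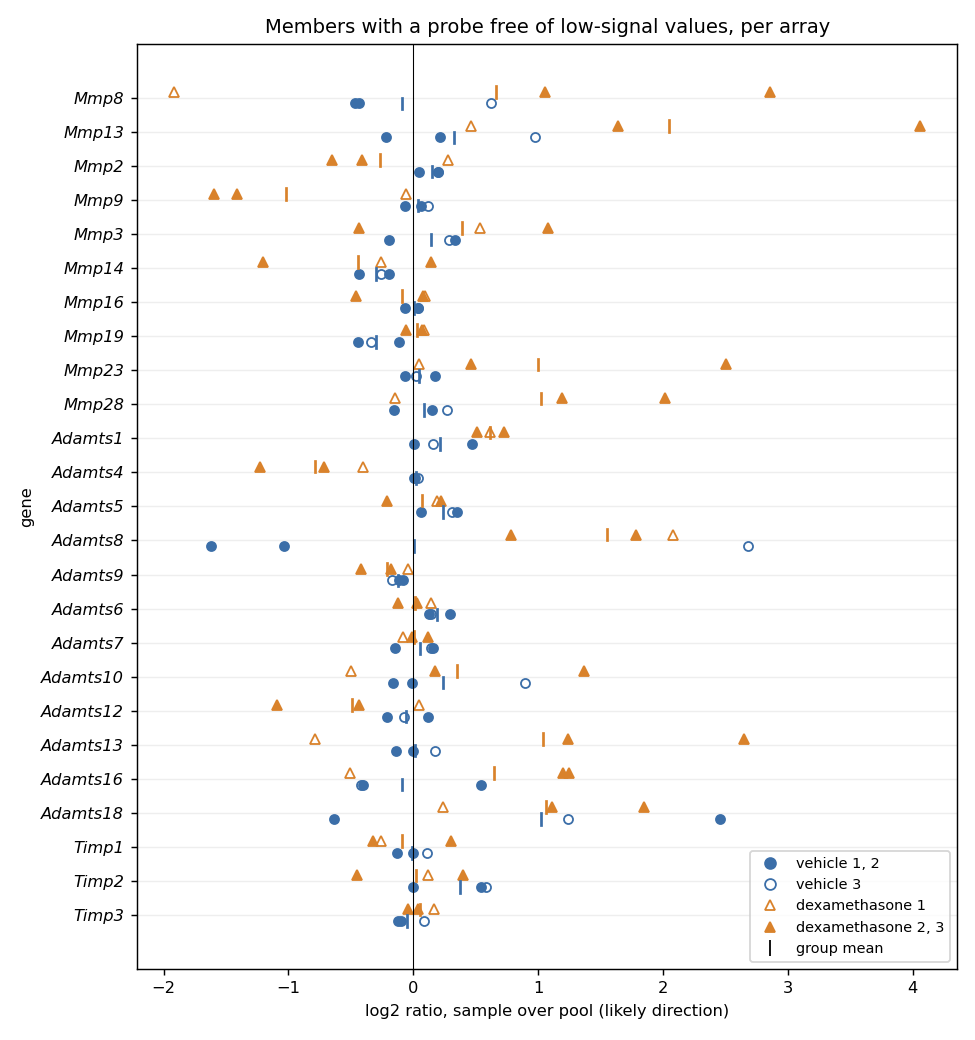
Log2 ratio on each array (horizontal axis, no unit) for the 25 members with a probe free of low-signal values, averaged over such probes. Circles are vehicle, triangles dexamethasone, vertical bars the means of 3 arrays, and open symbols vehicle 3 and dexamethasone 1. Adamts4 has its 3 triangles left of its 3 circles, and Adamts1 and Mmp19 have theirs to the right.

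No member passed the test across all genes. limma called 0 of the 38 tested members, and 0 (0.0%) of the 27046 features (genes or unnamed probes) tested, at a Benjamini-Hochberg adjusted p under 0.05. In the same fit Dusp1 and Fkbp5, with the large differences given above, had limma adjusted p of 0.056 and 0.141. A missing call is therefore not evidence of no response. The members' adjusted p ran from 0.732 to 0.991. At an unadjusted limma p under 0.05 there were 2 members, Mmp13 above and Adamts4 below vehicle, which is 5.26% of 38 against 5.43% of all features. By direction the background was 4.43% higher and 0.995% lower. The members' count was therefore near the background. Leaving out vehicle replicate 1 or vehicle replicate 2 gave 0 such members, against 2.99% and 2.63% of all features. Leaving out dexamethasone replicate 1 gave 10 of 35 (28.6%), against 29.2% of all features, so this larger count was also near its background. With vehicle replicate 3 left out there was 1 of 36 (2.78%, against 6.15% of all features). There was also 1 without dexamethasone replicate 2 (2.86%, against 4.63%) and 1 without dexamethasone replicate 3 (2.78%, against 4.3%). Over the 38 members the median difference was 0.10 with 21 above 0 (55.3%, against 68.2% of all features). The 3 dexamethasone values lay all above the vehicle values in Adamts1, Mmp13 and Mmp24, or 9.09% of the 33 members with 6 values, against 9.95% of all such features. They lay all below in Adamts4 alone, or 3.03% against 7.29%.

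**Figure D2:**
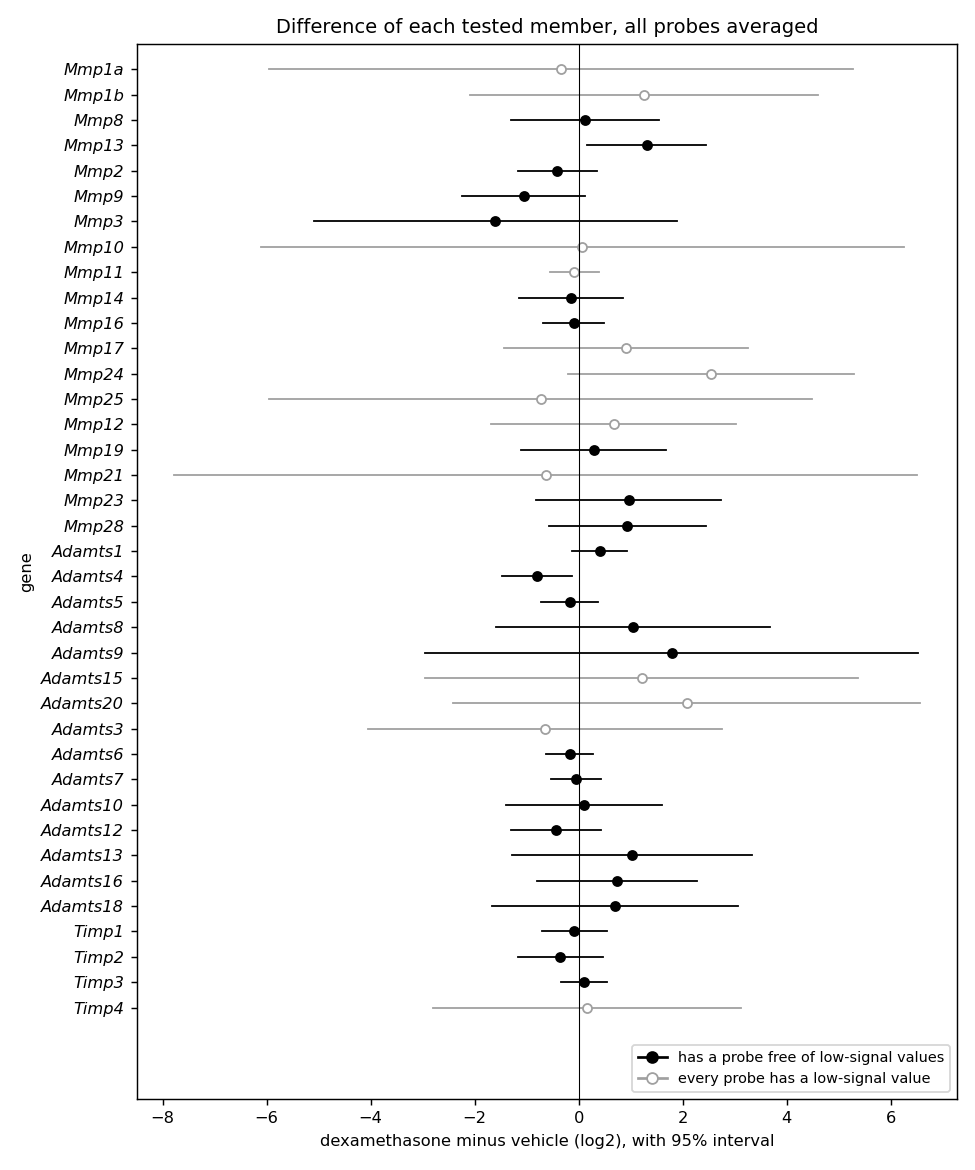
Dexamethasone minus vehicle on the log2 scale (horizontal axis) for the 38 tested members, averaged over all probes of a gene, with the 95% interval from limma. Black marks members with a probe free of low-signal values and grey those without, whose intervals reach from -7.78 to 6.51 for Mmp21.

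Among the ADAMTS genes that cut proteoglycans, Adamts4 and Adamts1 lay on opposite sides of vehicle. Adamts4 encodes an aggrecanase, also called aggrecanase-1. Its single probe, free of low-signal values, read 0.003, 0.013 and 0.038 on vehicle 1, 2 and 3 and -0.41, -0.71 and -1.23 on dexamethasone 1, 2 and 3. The vehicle values were nearly equal and the groups did not overlap. The difference was -0.80 ± 0.27 (SE, n = 3 each, 95% interval -1.48 to -0.12), a 1.74-fold lower ratio, with a limma p of 0.029 and an adjusted p of 0.732. In bulk RNA, fewer cells that express a gene and less RNA per cell cannot be told apart. The difference was -1.11 after median centring and -1.20 after quantile normalization. It was -0.41 within the low-share arrays and -1.01 within the high-share arrays, so both sets had the same sign. Its unadjusted limma p was 0.078 to 0.081 without any 1 vehicle array and 0.056 with the array set as a block (difference -0.71), so the unadjusted call was lost in each of these fits.

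Adamts1 encodes a protease that cuts versican and aggrecan. Averaged over its 3 probes, all free of low-signal values, it read 0.47, 0.00 and 0.16 in vehicle and 0.61, 0.73 and 0.51 in dexamethasone. The groups did not overlap, although vehicle 1 lay just under dexamethasone 3. Each of the 3 probes had a higher mean in dexamethasone, by 0.67, 0.25 and 0.31, while on dexamethasone 3 the probe mMC004302 read 0.11, below all of its vehicle values. The difference was 0.41 ± 0.21 (SE, n = 3 each, 1.32-fold), with a limma p of 0.105 and an adjusted p of 0.732. Relative to the median of all features it was 0.09, and it was 0.10 after median centring and -0.28 after quantile normalization, so its direction depends on the scaling. Within the low-share and high-share arrays it was 0.38 and 0.46.

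Adamts5, the other main aggrecanase of cartilage, had 4 probes free of low-signal values that differed among themselves. Their mean was 0.35, 0.06 and 0.31 in vehicle and 0.19, -0.21 and 0.22 in dexamethasone. The groups overlapped, and the difference was -0.17 ± 0.22 (SE, n = 3 each, 95% interval -0.72 to 0.38). The probes mMR028858 and mMC000800 lay below vehicle, by -0.81 and -0.20, and mMC003528 and mMC015508 above it, by 0.18 and 0.15. Adamts9, a versicanase, showed how 1 spot can set a mean: over 4 probes its difference was 1.79 ± 1.85 (SE), with a value of 13.4 for 1 probe on dexamethasone 3. Its single probe without low signal read -0.08, -0.11 and -0.17 in vehicle and -0.04, -0.42 and -0.18 in dexamethasone, a difference of -0.09 ± 0.15 (SE). Adamts8, Adamts15 and Adamts20 had vehicle SDs of 1.51, 1.53 and 2.17, larger than the differences of 1.04 and 1.21 and about as large as the 2.07 of Adamts20. The Adamts8 probe free of low-signal values differed by 1.54 ± 1.23 (SE).

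**Figure D3:**
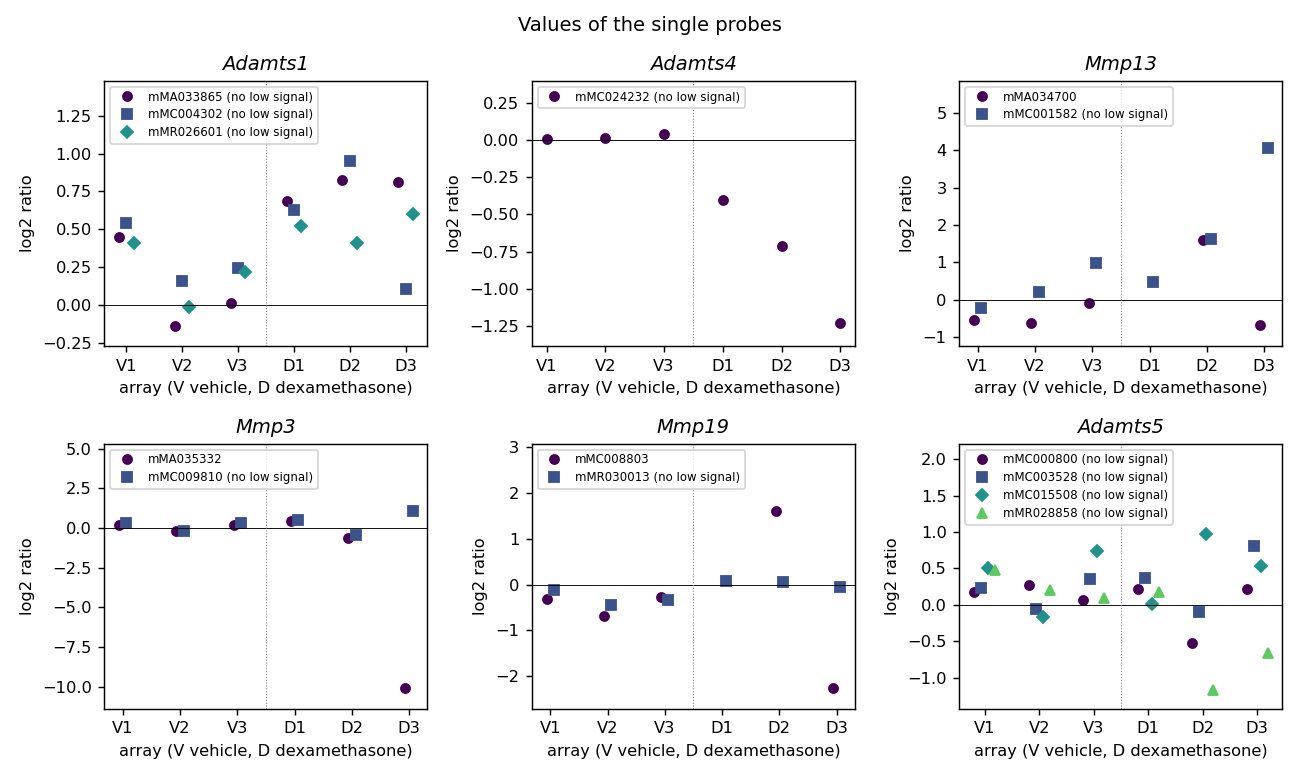
Log2 ratio of each probe (vertical axis) on the 3 vehicle (V) and 3 dexamethasone (D) arrays for Adamts1, Adamts4, Mmp13, Mmp3, Mmp19 and Adamts5, with 1 symbol per probe. The Mmp13 probes part on D3 and so do the Mmp3 probes, where 1 reads -10.06, while for Adamts1 the probe mMC004302 is the lowest of 3 on D3.

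Of the other ADAMTS genes, Adamts6 and Adamts7 had the tightest values. Adamts7, which cuts cartilage oligomeric matrix protein, read 0.16, -0.15 and 0.14 in vehicle and -0.08, 0.12 and -0.01 in dexamethasone. Its difference was -0.04 ± 0.19 (SE, n = 3 each), with a 95% interval of -0.52 to 0.44. Adamts6 differed by -0.17 ± 0.18 (SE), from 0.13, 0.30 and 0.14 to 0.14, 0.03 and -0.12. Adamts12, a relative of Adamts7, read 0.12, -0.21 and -0.08 in vehicle and 0.04, -0.44 and -1.09 in dexamethasone, with overlapping groups and a difference of -0.44 ± 0.34 (SE). Adamts13, which cuts von Willebrand factor, and Adamts16 were widely spread in dexamethasone, at -0.79, 2.65 and 1.24 for Adamts13 and -0.50, 1.20 and 1.25 for Adamts16. In both genes dexamethasone 1 was the lowest of the 6 arrays, while dexamethasone 2 and 3 were the highest. Adamts10 and Adamts18 differed by 0.10 ± 0.59 and 0.70 ± 0.92 (SE), and the Adamts18 probe free of low-signal values by 0.04 ± 0.89 (SE). The Adamts10 probes mMC003801 and mMR027477 went opposite ways, by -0.49 and 0.70. Within the low-share and high-share arrays Adamts10 differed by -0.42 and -0.12, both opposite in sign to its difference over all arrays. Adamts3, a procollagen N-proteinase, had 5 values and a difference of -0.65 ± 1.24 (SE). Its values on dexamethasone 1 and dexamethasone 2 came from different probes. Adamts20, a versicanase whose probes all carried low-signal values, had means of -1.82, -0.62 and 2.39 in vehicle and -0.70, 4.56 and 2.32 in dexamethasone. Its groups overlapped, and the SE was 1.76. On dexamethasone 2 and 3 the probe mMA033291 had no value, so those means rest on mMC008159 alone. Within mMC008159 the difference was 1.59.

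The collagenase Mmp13 had the smallest p among the MMPs, but its probes did not give 1 picture. Averaged over 2 probes it read -0.38, -0.21 and 0.44 in vehicle and 0.46, 1.61 and 1.69 in dexamethasone. The groups did not overlap, with dexamethasone 1 just above vehicle 3. The difference was 1.30 ± 0.45 (SE, n = 3 each, 2.47-fold), with a limma p of 0.032 and an adjusted p of 0.732, and it was 1.00 after median centring and 0.96 after quantile normalization. On dexamethasone 1 the probe mMA034700 had no value, so that mean rests on the other probe alone. The probe free of low-signal values, mMC001582, read -0.22, 0.22 and 0.98 in vehicle and 0.46, 1.64 and 4.06 in dexamethasone, and its groups overlapped. On that probe the difference was 1.73 ± 0.98 (SE), with a limma p of 0.137. The probe mMA034700 read -0.54, -0.63 and -0.10 in vehicle and 1.58 and -0.68 on dexamethasone 2 and 3. Mmp8, the collagenase of neutrophils, differed by 0.13 ± 0.56 (SE) over 2 probes of opposite sign, and by 0.76 ± 1.26 (SE) on the probe free of low-signal values. The rodent interstitial collagenases Mmp1a and Mmp1b differed by -0.34 ± 1.79 and 1.26 ± 1.22 (SE), with 4 and 5 values.

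Both gelatinases, which cut denatured collagen and basement membrane collagen, had differences below 0. Mmp9 read 0.06, -0.06 and 0.12 in vehicle and -0.06, -1.41 and -1.60 in dexamethasone. Dexamethasone 2 and 3 were far below vehicle and dexamethasone 1 lay among the vehicle values. The difference was -1.06 ± 0.46 (SE, n = 3 each, 2.08-fold lower), with a limma p of 0.068 and an adjusted p of 0.732. It was -0.06 within the low-share arrays and -1.62 within the high-share arrays, so nearly all of it lay in 1 set, and the sets were not compared by a test. Mmp2 read 0.20, 0.04 and 0.20 in vehicle and 0.27, -0.41 and -0.65 in dexamethasone. As in Mmp9, dexamethasone 2 and 3 lay below vehicle, but dexamethasone 1 was the highest of the 6 arrays. The difference was -0.41 ± 0.30 (SE). Within the low-share arrays it was 0.15 and within the high-share arrays -0.73. Both gelatinases stayed below 0 after median centring (-1.37 and -0.72) and after quantile normalization (-1.68 and -0.78).

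Of the stromelysins, Mmp3, which cuts proteoglycans and fibronectin and activates other MMPs, had a large mean difference that came from 1 spot. Over both probes it was -1.60 ± 1.36 (SE, n = 3 each), with a value of -10.06 for the probe mMA035332 on dexamethasone 3. The other probe, mMC009810, read 0.33, -0.20 and 0.29 in vehicle and 0.53, -0.44 and 1.08 in dexamethasone. Its groups overlapped and the difference was 0.25 ± 0.43 (SE, 95% interval -0.84 to 1.34). With values beyond 10 in size set to missing, the difference over both probes was 0.25 as well. In that fit dexamethasone 3 rested on mMC009810 alone, so the 2 differences are not independent. The values left for mMA035332 were 0.17, -0.16 and 0.17 in vehicle and 0.47 and -0.61 on dexamethasone 1 and 2. Mmp10 had 5 values from 1 probe, -0.34, -1.03 and 4.17 in vehicle and -1.08 and 3.09 on dexamethasone 1 and 3, so that the high-share arrays were the high ones in both groups. Mmp11 differed by -0.08 ± 0.18 (SE).

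Membrane-type MMPs act at the cell surface, where Mmp14 activates pro-Mmp2. Mmp14 read -0.20, -0.43 and -0.26 in vehicle and -0.26, -1.20 and 0.14 in dexamethasone. The dexamethasone values enclosed those of vehicle, and the difference was -0.14 ± 0.39 (SE, 95% interval -1.15 to 0.86). Mmp16, with 3 probes free of low-signal values, read 0.04, -0.06 and 0.04 in vehicle and 0.09, -0.46 and 0.08 in dexamethasone, a difference of -0.10 ± 0.23 (SE). Mmp24 had the largest mean difference of the 38 tested members, 2.54 ± 1.08 (SE, 5.80-fold), from 0.26, -0.23 and 0.73 in vehicle to 0.88, 2.59 and 4.91 in dexamethasone. Its groups did not overlap. Of its 2 probes, however, mMR026816 had no value on dexamethasone 2 and 3 and read -1.17 on dexamethasone 1, below its 3 vehicle values of -0.77, -0.85 and -0.59. The means on those 2 arrays thus come from the other probe, mMC010958, which stood higher on the 4 arrays where both were measured. That probe read 1.29, 0.39 and 2.05 in vehicle and 2.93, 2.59 and 4.91 in dexamethasone. Within it the difference was 2.23 and the groups did not overlap, while 1 of its values was low-signal. Mmp17 and Mmp25 differed by 0.91 ± 0.92 and -0.73 ± 1.90 (SE).

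Mmp19, an MMP found in many tissues, stood apart only on its cleaner probe. The probe mMR030013, free of low-signal values, read -0.12, -0.44 and -0.34 in vehicle and 0.09, 0.07 and -0.06 in dexamethasone, and its groups did not overlap. The difference was 0.33 ± 0.15 (SE, 95% interval -0.04 to 0.70, 1.26-fold), with a limma p of 0.070 and an adjusted p of 0.574 in the fit without low-signal probes. It was 0.37 within the low-share arrays and 0.34 within the high-share arrays, and 0.02 after median centring. Over both probes the difference was 0.28 ± 0.55 (SE), and it was -0.02 after median centring. Mmp28, also called epilysin, had 2 probes free of low-signal values, with means of 0.15, -0.16 and 0.27 in vehicle and -0.14, 1.19 and 2.01 in dexamethasone. Mmp23 read 0.18, -0.07 and 0.02 in vehicle and 0.04, 0.46 and 2.503 in dexamethasone. In both genes dexamethasone 3 was the highest array and dexamethasone 1 lay within the vehicle range, and the differences were 0.93 ± 0.59 and 0.96 ± 0.69 (SE). The macrophage elastase Mmp12 differed by 0.67 ± 0.92 and Mmp21 by -0.63 ± 2.79 (SE).

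Of the members that were not tested, the matrilysin gene Mmp7 had 3 values, -6.17 on vehicle 2, 3.81 on dexamethasone 1 and -1.58 on dexamethasone 3. Mmp20, the enamel protease enamelysin, had values on vehicle 1 and 2 only (5.55 and 2.68), and Adamts19 had values on vehicle 1, vehicle 3 and dexamethasone 2 (-1.43, 1.70 and 1.46).

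Timp1 and Timp3 had a narrow spread among vehicle arrays (SD 0.12 and 0.11), Timp2 a wider one (0.33) and Timp4 the widest (1.42). Timp3, the matrix-bound inhibitor, read -0.12, -0.10 and 0.08 in vehicle and 0.17, 0.04 and -0.04 in dexamethasone over 2 probes, with overlapping groups. The difference was 0.10 ± 0.18 (SE, n = 3 each), and its 95% interval allows a ratio between 0.786 and 1.47 times vehicle. It was -0.21 after median centring and 0.03 after quantile normalization. Timp1, the inducible inhibitor, read -0.13, -0.005 and 0.11 in vehicle and -0.26, 0.30 and -0.32 in dexamethasone. Its dexamethasone values lay on both sides of vehicle, the difference was -0.09 ± 0.24 (SE), and the interval allows 0.612 to 1.45 times vehicle. Timp2, which also takes part in the activation of pro-Mmp2 by Mmp14, read -0.001, 0.55 and 0.58 in vehicle and 0.12, -0.45 and 0.40 in dexamethasone, a difference of -0.35 ± 0.32 (SE) and an interval of 0.445 to 1.38 times vehicle. Timp4, whose only probe carried low-signal values, read -0.39, -0.52 and 2.00 in vehicle and -1.48, 1.38 and 1.65 in dexamethasone, with a difference of 0.15 ± 1.16 (SE). Without a block none of the 4 inhibitors had an unadjusted limma p under 0.05. With the array set as a block Timp4 differed by -0.76 ± 0.24 (SE), the opposite sign, with an unadjusted limma p of 0.030 and an adjusted p of 0.806. The intervals of Timp1, Timp2 and Timp3 leave room for differences of the size seen in Adamts1.

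The array sets were compared with the treatment over all members with usable values. In the 33 members with 6 values, the 3 high-share arrays lay above the 3 low-share arrays in 9 (27.3%, against 34.1% of all such features) and below them in 0 (0.0%, against 1.63%). The SD was larger among the dexamethasone arrays in 26 of the 33 (78.8%, against 84.2%). In the 25 members with a probe free of low-signal values, all 3 high-share arrays lay above all 3 low-share arrays in 5 (Mmp8, Mmp13, Mmp28, Adamts10 and Adamts13), or 20.0%, against 27.7% of all features so filtered. They lay below in 1, Adamts9 (4.0%, against 2.18%). The 3 dexamethasone arrays lay above vehicle in 2 of the 25 (8.0%, against 10.4%) and below in 1 (4.0%, against 9.33%). Differences within the low-share arrays (dexamethasone 1 against vehicle 1 and 2) and within the high-share arrays (dexamethasone 2 and 3 against vehicle 3) had the same sign in 12 of 25, or 48.0%, against 55.5% of all. They were both above 0 in 4, Adamts1, Mmp3, Mmp13 and Mmp19 (16.0%, against 28.8% of all). They were both below 0 in 8 (32.0%, against 26.6% of all), among them Adamts4, Mmp9, Timp1 and Timp2. The SD was larger among the dexamethasone than among the vehicle arrays in 19 of 25 (76.0%, against 88.2% of all), with medians of 0.57 and 0.17. With the array set as a block, limma gave 3 of 38 members (7.89%, against 5.61% of all features) an unadjusted p under 0.05. These were Mmp13 (0.98), Mmp25 (-1.36) and Timp4 (-0.76), and Adamts15 differed by -0.02 in that fit. Every member's adjusted p stayed above 0.05 there.

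**Figure D4:**
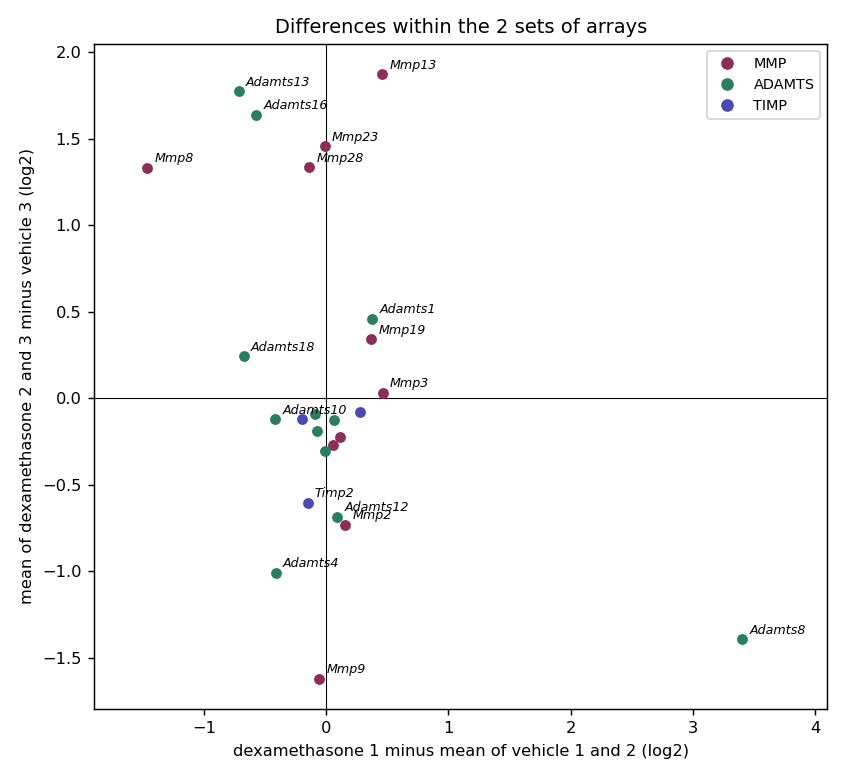
Difference within the high-share arrays (vertical axis, log2) against the difference within the low-share arrays (horizontal axis, log2) for the 25 members with a probe free of low-signal values, coloured by family. Adamts1 and Mmp19 lie near equal values on both axes, Adamts4 lies below 0 on both, Mmp2 is below 0 on the vertical axis only, and Mmp9 lies at -0.06 and -1.62.

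In the fit without low-signal probes limma called 0 of 25 members and 29 of 17152 features (0.169%) at an adjusted p under 0.05. At an unadjusted limma p under 0.05 that fit left Adamts4 as the single member, or 4.0% against 7.46% of all features. Its limma p was 0.019 and its adjusted p 0.574. The background by direction was 4.9% higher and 2.56% lower. The members' median difference was 0.04, against 0.17 for all features so filtered.

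Genes that act with these proteases were read from 7 lists of 82 genes chosen from general knowledge, of which 79 were tested. At an unadjusted limma p under 0.05, 6 were higher and 2 lower (10.1% together, against 5.43% of all features), and 0 passed after adjustment over all features. The count of 8 became 4 of 79 (5.06%, against 2.99% of all features) without vehicle replicate 1. It was 3 of 78 (3.85%, against 2.63%) without vehicle replicate 2 and 6 of 78 (7.69%, against 6.15%) without vehicle replicate 3. Leaving out dexamethasone replicate 1 gave 16 of 74 (21.6%, against 29.2% of all features). Leaving out dexamethasone replicate 2 gave 5 of 75 (6.67%, against 4.63%), and dexamethasone replicate 3 gave 9 of 76 (11.8%, against 4.3%). In the fit without low-signal probes the count was 5 of 60 (8.33%), against 7.46% of all features. In the plasminogen system, which activates several pro-MMPs, 2 of 10 genes, both plasminogen activators, were lower at that unadjusted p and 0 were higher. Over all features 0.995% were lower and 4.43% higher. Of the genes that did not pass, Plg, Furin, Pcsk5 and Pcsk7 had means above vehicle (2.33, 0.85, 2.15 and 0.68). Plaur, Serpinb2, Serpinf2 and Pcsk6 had means below it. Plau, the urokinase gene, read 0.16, -0.03 and -0.004 in vehicle and -0.28, -0.95 and -0.85 in dexamethasone, without overlap, a difference of -0.74 ± 0.25 (SE, limma adjusted p = 0.732). Plat, the tissue-type activator, differed by -0.57 ± 0.20 (SE), from 0.44, 0.68 and 0.51 to 0.04, 0.13 and -0.26. The receptor gene Plaur differed by -0.44 ± 0.24 (SE).

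Here too, higher and lower in a count mean an unadjusted limma p under 0.05, which 5.43% of all features passed. Among 19 substrates, 2 were higher and 0 lower. Vcan encodes versican, a proteoglycan cut by Adamts1, Adamts4 and Adamts5, and read -0.28, -0.43 and -0.37 in vehicle and 0.35, 0.06 and 0.38 in dexamethasone, a difference of 0.62 ± 0.19 (SE, limma adjusted p = 0.732). Col4a1, a basement membrane collagen, differed by 0.73 ± 0.19 (SE, 1.66-fold), and its groups did not overlap. Col1a1, a fibrillar collagen, differed by -0.48 ± 0.24 (SE). Of 10 surface regulators and other inhibitors Sdc4, the heparan sulfate proteoglycan syndecan-4, was higher, from -0.38, -0.59 and -0.24 to 0.74, 1.18 and 1.11. Its difference of 1.42 ± 0.22 (SE, 2.67-fold) had a limma adjusted p of 0.296. In the other lists 1 of 11 ADAM sheddases (Adam28, 1.71 ± 0.64), 1 of 12 procollagen-processing genes (Loxl3, 0.91 ± 0.28), 1 of 11 cysteine and other proteases (Ctss, 2.27 ± 0.47, SE, with no value on dexamethasone 1) and 0 of 6 ADAMTS-like genes were higher, and none was lower. Within their lists, the gene with the next smallest p, which did not pass, was Adam19 (-0.37 ± 0.18) for the sheddases, the lysyl oxidase relative Loxl2 (0.85 ± 0.42) for procollagen processing and the cathepsin gene Ctsk (1.74 ± 0.89, SE) for the cysteine proteases. The smallest p among the ADAMTS-like genes was that of Papln (2.33 ± 1.49, SE). Each of Adam28, Loxl3, Ctss and Plat had low-signal values in all of its probes.

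The labelled cell type could be checked only by signal, since ratios show no level. Of 12 mesenchymal markers 11 had a probe free of low-signal values, all but Pdgfra, against 3 of 8 blood cell, 2 of 4 endothelial and 4 of 5 epithelial markers tested. With 4 of 5 epithelial markers so measured, this check did not separate mesenchymal from epithelial cells. The median difference was -0.43 for the mesenchymal, 1.07 for the blood cell, 1.25 for the endothelial and 0.76 for the epithelial markers. Over all features it was 0.32. Whether the cell types differed between the groups was not tested. At an unadjusted limma p under 0.05, 1 mesenchymal marker (Twist1, -0.98 ± 0.26) and 1 blood cell marker (Cd3e, 2.38 ± 0.70, SE) passed. That is 8.33% and 12.5% of these lists, against 5.43% of all features. Cd3e had low-signal values in all of its probes and no value on dexamethasone 1. In the fit without low-signal probes 2 of 11 mesenchymal markers, Prrx1 and Twist1, were lower and 0 were higher. There 0 of 3 blood cell markers passed, against 7.46% of all features. Macrophages are a known source of Mmp9 and Mmp12, and the part of these markers in the members' differences was not tested.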

How the data were processed

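Two-colour arrays of 6 samples, 3 per group, were used, and each sample's title gave its group and replicate number. The authors' deposited values were taken as log2 ratios against a common pool, with no statement of scale or direction; on 4 arrays some exceed 100 in size, so those deposited columns were treated as a score that is a log2 ratio in nearly all rows. The submitters' processing notes name limma but no version. How background was corrected and arrays were normalized is not given in the sources used here. Genes were named through the platform annotation: of 38467 probes 29456 had 1 symbol and 760 several, and 0 symbols differed in the RefSeq table.

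Probes with 1 symbol were averaged per gene, and a feature needed values on 2 arrays of each group. The fit used limma 3.58.1 in R 4.3.3 (lmFit, eBayes) on the deposited values, two-sided, with Benjamini-Hochberg adjustment at 0.05 over all 27046 features. It was also run on simulated data with independent noise and the same SD in both groups. That simulation lacks the array sets and the unequal spread of these data, so it does not show how the fit performs on them. SE is moderated. Intervals are 95%. An exact permutation test of 3 against 3 arrays cannot go below 0.1, so none was used. The series description calls the cultures biological replicates. The number of arrays limits the precision. Alternatives covered scaling, missing and low-signal values, weights, blocks and each array left out; 2 combinations with the low-signal filter, and the group overlap under other settings, were added after seeing the data. A planned search of protein motifs was not run. The 12 members with the smallest p, the TIMPs and 9 further members were set to be shown per array, with up to 3 genes of each pathway list by p. The members, lists and rules were chosen with earlier results of these data known.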

Additional observations from a re-analysis of the deposited data

How the results depend on the processing

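Of the 38 tested members, 17 kept the sign of their difference in every alternative fit that gave a value, among them Adamts4 (-1.20 to -0.58), Mmp9 (-1.68 to -0.77), Mmp13 (0.96 to 1.73), Mmp2 and Timp2. The other 21 changed sign in at least 1, including Adamts1, Mmp3, Mmp19, Timp1 and Timp3. The share of all features that keep their sign was not counted, so these counts have no background. All fits draw on the same 6 arrays and are not independent of each other. The lowest adjusted limma p of any member in any fit was 0.0632, for Mmp9 without dexamethasone replicate 1. Deviations of same-numbered arrays correlated at 0.25, -0.15 and 0.32. Vehicle 1 and 2 correlated above 0 with dexamethasone 1 only, and vehicle 3 with dexamethasone 2 and 3 only. These signs follow the array sets, so the check cannot tell whether the replicate numbers pair the cultures. With the replicate block the counts of members and pathway genes past an unadjusted limma p of 0.05 were 1 and 4, against 2 and 8. These were 2.63% and 5.06%, against 4.91% of all features in the fit with the replicate block. Adamts4 had a limma p of 0.070 in that fit. The members' count was 1 (4.0%) without low-signal probes, alone or together with median centring or the array set as a block. The share of all features in those 3 low-signal fits was 7.46%, 4.67% and 5.47%. With array weights the members' count was 4 (10.5%, against 12.1% of all features). The pathway count was 5 (8.33%) in each of those 3 low-signal fits and 4 after quantile normalization (5.06%, against 4.09% of all features). Leaving out 1 array gave 0 to 10 members and 3 to 16 pathway genes, while the share of all features past the same p ran from 2.63% to 29.2%, lowest without vehicle replicate 2 and highest without dexamethasone replicate 1. The count of all features past an adjusted p of 0.05 was 29 without low-signal probes, 5 with values required on all 6 arrays, 2 with 1 value per group, and 0 otherwise, including the 6 fits without 1 array. The members' median difference was -0.26 after quantile normalization and -0.26 with the low-signal filter and centring, and ran from -0.11 to 0.46 without 1 array.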
